A study of Rattus norvegicus with 6 samples.

Results

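The genes described here encode brakes on mTORC1, the kinase complex that promotes protein synthesis and cell growth. They are the 3 Sestrins (Sesn1, Sesn2 and Sesn3), Ddit4, Deptor, Tsc1 and Tsc2. They were taken by gene symbol from the table of read counts, where 7 of 18930 rows carried these names, with 1 row per gene. All 7 genes passed the filter on low counts and were among the 11870 genes tested. The samples were NRK-52E cells, an established epithelial line of rat kidney labelled wild type, in 2 groups of 3. STZ samples were exposed to streptozotocin (STZ), a DNA-alkylating glucose analog, at 10 mM for 24 h. Control samples were labelled only as control, and the study's text describes them as vehicle-treated. All samples came from 1 line, and it is not stated whether replicates were separate cultures, so the p-values measure the spread between these samples. In the test used, the spread of each gene is estimated partly from the other genes tested.

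mTORC1 sits on the lysosome and is turned on by the small GTPase Rheb when growth factors and amino acids are plentiful. Tsc1 and Tsc2 form the complex that switches Rheb off, and Ddit4 (also called REDD1) acts through that complex. Sestrins hold back the GATOR2 complex and so leave GATOR1, the inhibitor of the Rag GTPases, active, and Deptor binds the mTOR kinase itself. Sesn1 and Sesn2 are known p53 targets, Sesn2 and Ddit4 are also induced through ATF4, Ddit4 by hypoxia and glucocorticoids, and Sesn3 by FOXO factors. Activity of mTORC1 was not measured in these data, which hold RNA levels only.

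With STZ, RNA of Sesn2, Ddit4, Sesn3 and Tsc2 rose, RNA of Deptor fell, and Sesn1 and Tsc1 were not past the test. Sesn2 rose most, to 2.46 times its Control level, and Deptor fell by 31.7%. By the adjusted p-value alone (under 0.05 in the quasi-likelihood test of edgeR, corrected by Benjamini-Hochberg across the whole set of tested genes), 4 of the 7 genes were higher and 1 was lower. Over all genes tested 25.9% were higher and 25.1% were lower by the same rule, 50.9% in all. With the study's second threshold, an absolute log2 fold change over 1, Sesn2 was the only member called, against 3.37% of all genes (2.26% higher and 1.11% lower). The median log2 fold change of the members was 0.22, and that of all genes tested was -0.01.

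**Figure D1:**
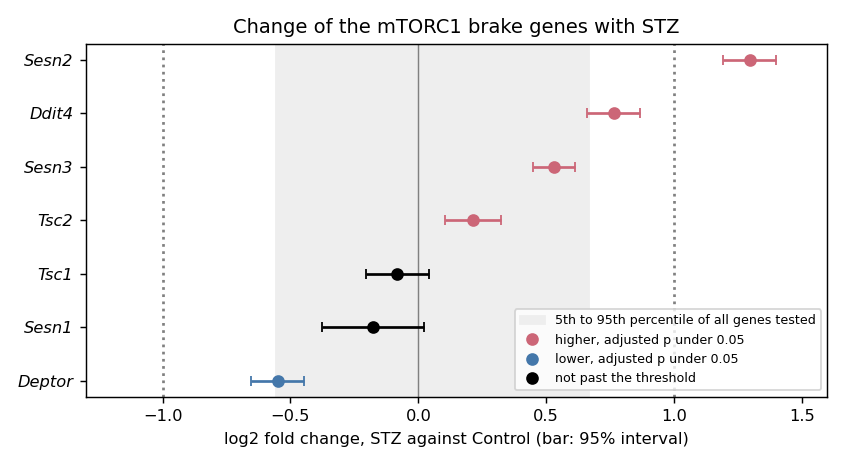
Log2 fold change (horizontal axis, STZ against Control) of each of the 7 genes with its 95% interval, where the grey band spans the 5th to 95th percentile of all genes tested and dotted lines mark -1 and 1. Sesn2 (1.30) and Ddit4 (0.76) lie above the band, which ends at 0.67, and Deptor (-0.55) lies just inside its lower edge at -0.56.

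The promoters of Sesn2, Sesn3, Ddit4 and Tsc2 are shown because these 4 genes rose, and that of Sesn1 because it is the Sestrin that did not pass the test. Sequences are the 250 bases before the start that the RefSeq promoter table gives for each gene (build GRCr8), read 5′ to 3′ on the strand of the gene. The start given for Sesn1 lies inside the annotated span of the gene (chr20:46876918-46970010), so its window precedes an inner start and not the outermost one. The window of Tsc1 also lies inside the span of its gene, those of Sesn3 and Tsc2 lie partly inside, and those of Sesn2 and Ddit4 end where the span begins. Of the 7 genes, 6 had an entry in this table and Deptor had none. The authors counted reads on another build (Rnor6), so these positions are not those of the counting. Capitals mark the CCAAT box, a common promoter element bound by NF-Y, which appears in these windows as its complement ATTGG, and Tsc2 has none.
Sesn2 (chr5:150005256-150005505, minus strand): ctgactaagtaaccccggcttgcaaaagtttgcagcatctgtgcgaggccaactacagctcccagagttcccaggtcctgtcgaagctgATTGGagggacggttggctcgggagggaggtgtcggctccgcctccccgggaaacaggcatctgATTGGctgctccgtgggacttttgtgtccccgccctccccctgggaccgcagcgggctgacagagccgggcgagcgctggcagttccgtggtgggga
Sesn3 (chr8:19415177-19415426, plus strand): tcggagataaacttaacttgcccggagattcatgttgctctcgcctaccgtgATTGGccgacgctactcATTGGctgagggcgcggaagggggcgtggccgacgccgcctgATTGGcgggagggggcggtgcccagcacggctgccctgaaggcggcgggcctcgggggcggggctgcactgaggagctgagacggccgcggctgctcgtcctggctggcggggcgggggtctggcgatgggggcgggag
Ddit4 (chr20:28437038-28437287, minus strand): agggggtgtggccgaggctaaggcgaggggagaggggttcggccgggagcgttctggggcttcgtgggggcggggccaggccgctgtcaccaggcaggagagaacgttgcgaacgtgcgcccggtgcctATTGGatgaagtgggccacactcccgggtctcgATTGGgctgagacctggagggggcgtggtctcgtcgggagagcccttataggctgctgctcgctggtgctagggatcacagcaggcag
Tsc2 (chr10:14160240-14160489, minus strand): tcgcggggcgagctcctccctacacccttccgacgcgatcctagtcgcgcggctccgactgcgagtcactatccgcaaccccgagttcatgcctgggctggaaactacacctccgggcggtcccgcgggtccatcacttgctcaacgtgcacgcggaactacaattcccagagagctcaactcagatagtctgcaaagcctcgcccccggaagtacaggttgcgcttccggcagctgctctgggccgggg
Sesn1 (chr20:46948469-46948718, plus strand): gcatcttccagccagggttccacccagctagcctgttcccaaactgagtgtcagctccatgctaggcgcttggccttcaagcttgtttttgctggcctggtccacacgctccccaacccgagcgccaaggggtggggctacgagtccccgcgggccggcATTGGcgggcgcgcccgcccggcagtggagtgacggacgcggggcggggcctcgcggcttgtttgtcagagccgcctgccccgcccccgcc

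Sesn2 and Ddit4 had 2 CCAAT boxes each, Sesn3 had 3, Sesn1 had 1, and Tsc1 and Tsc2 had 0. Both strands were searched. Among 8698 promoter windows of tested genes of the same length, 36.3% held at least 1, 13.3% at least 2 and 4.81% at least 3. The CCAAT box and the other motifs were chosen after these windows were read, so the shares do not test for an excess. In Sesn2 the boxes began 161 and 97 bases before the start, and in Ddit4 they began 121 and 88 bases before it. In Sesn3 they began 198, 181 and 139 bases before the start, and the single box of Sesn1 began 91 bases before it. Letters of other elements were searched in the same windows. The HIF element core ACGTG occurred 1 time in Ddit4 and 1 time in Tsc2, against 22.9% of the windows of tested genes with a match. The C/EBP-ATF element TGATGNAA, the FOXO element GTAAACA and the glucocorticoid receptor half-site AGAACA had 0 matches in the 6 windows. Among the windows of tested genes, 1.7%, 1.98% and 10.0% held a match to these in the same order. At such shares, 0 matches in 6 windows say little. The p53 decamer, a single arm of its response element, matched 1 time in Sesn1 and 0 times in the others, against 5.63% of the windows of tested genes. The GC box GGGCGG occurred 4 times in Sesn3, 3 times in Sesn1, 1 time each in Sesn2, Ddit4 and Tsc2, and 0 times in Tsc1. Of the windows of tested genes, 61.2% held at least 1 GC box and 18.4% at least 3. Introns and sequence farther upstream were not searched.

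**Figure D2:**
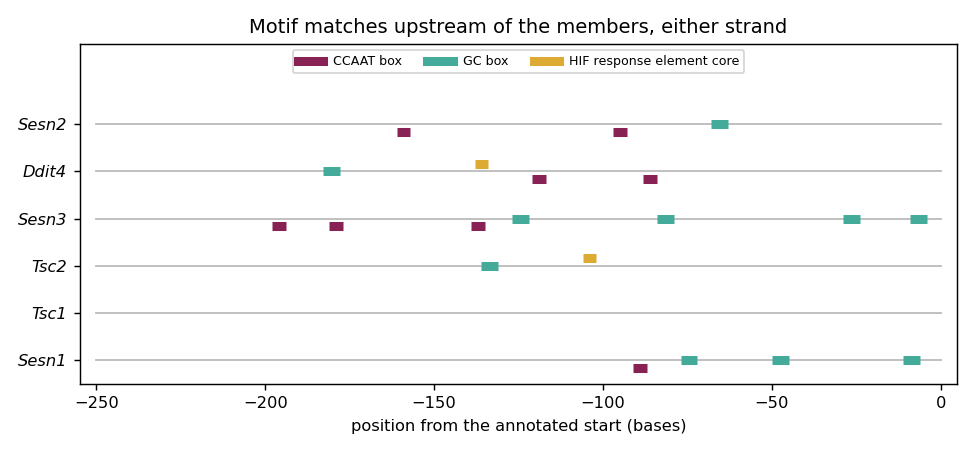
Positions of CCAAT boxes, GC boxes and HIF element cores in the 250 bases before the start of 6 of the genes (horizontal axis, bases from the start). The genes are ordered from top to bottom by falling log2 fold change, and CCAAT boxes are drawn in Sesn2 (2), Ddit4 (2), Sesn3 (3) and Sesn1 (1).

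Sesn2 encodes a Sestrin that serves as a leucine sensor and is induced by several stresses. Its level, in reads scaled to library size (CPM, with TMM factors), was 54.8, 56.2 and 55.3 in Control replicates 1 to 3. In STZ replicates 1 to 3 it was 129, 145 and 135. All STZ samples lay above all Control samples, and the lowest STZ sample was more than 2 times the highest Control sample. The means were 55.4 ± 0.722 CPM in Control (SD, n = 3) and 136 ± 7.95 CPM in STZ (SD, n = 3). The log2 fold change was 1.30 (standard error 0.05, 95% interval 1.19 to 1.40, adjusted p = 2.54e-24 in the edgeR fit). By log2 fold change, Sesn2 ranked 157 from the top of the 11870 genes tested. Behind these values were 581 to 2023 reads per sample.

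Ddit4 encodes a short-lived stress protein that restrains mTORC1 through the Tsc complex. Its level was 69.7, 63.6 and 67.5 CPM in Control replicates 1 to 3, against 117, 117 and 107 CPM in the STZ replicates in the same order. The groups did not overlap. Means were 66.9 ± 3.09 CPM in Control (SD, n = 3) and 114 ± 5.45 CPM in STZ (SD, n = 3). The log2 fold change was 0.76 (standard error 0.05, 95% interval 0.66 to 0.87, adjusted p = 1.18e-16 from the same edgeR test), a rise of 69.8%. This gene ranked 466 from the top by log2 fold change.

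Sesn3, the Sestrin tied to FOXO factors, had 2058 to 4064 reads per sample. Levels are not compared between genes here, because transcript lengths were not at hand. Its level was 198, 187 and 177 CPM in Control replicates 1 to 3, against 273, 265 and 271 CPM in the STZ replicates. Every STZ sample was higher than every Control sample, and the STZ samples lay closer together (SD 4.22 CPM, n = 3) than the Control samples (SD 10.5 CPM, n = 3). The log2 fold change was 0.53 (standard error 0.04, 95% interval 0.45 to 0.61, adjusted p = 1.86e-14 from the same edgeR test), under the study's fold-change threshold.

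Sesn1, the Sestrin first found as a p53-induced gene, was the Sestrin that did not pass the test. Its level was 15.2, 16.6 and 15.9 CPM in Control replicates 1 to 3, against 13.1, 15.0 and 14.2 CPM in the STZ replicates. The lowest Control sample lay only just above the highest STZ sample, so the groups did not overlap, but the gap was small against the spread. The log2 fold change was -0.18 (standard error 0.10, 95% interval -0.38 to 0.02) and was not past the threshold (adjusted p = 0.134 from the same edgeR test). The upper end of the interval allows a level in STZ of at most 1.02 times that in Control. Depth was lowest here, with 161 to 212 reads per sample. Counting error alone gives a coefficient of variation of 7.43% in Control at such depth, and the observed one was 4.32%.

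**Figure D3:**
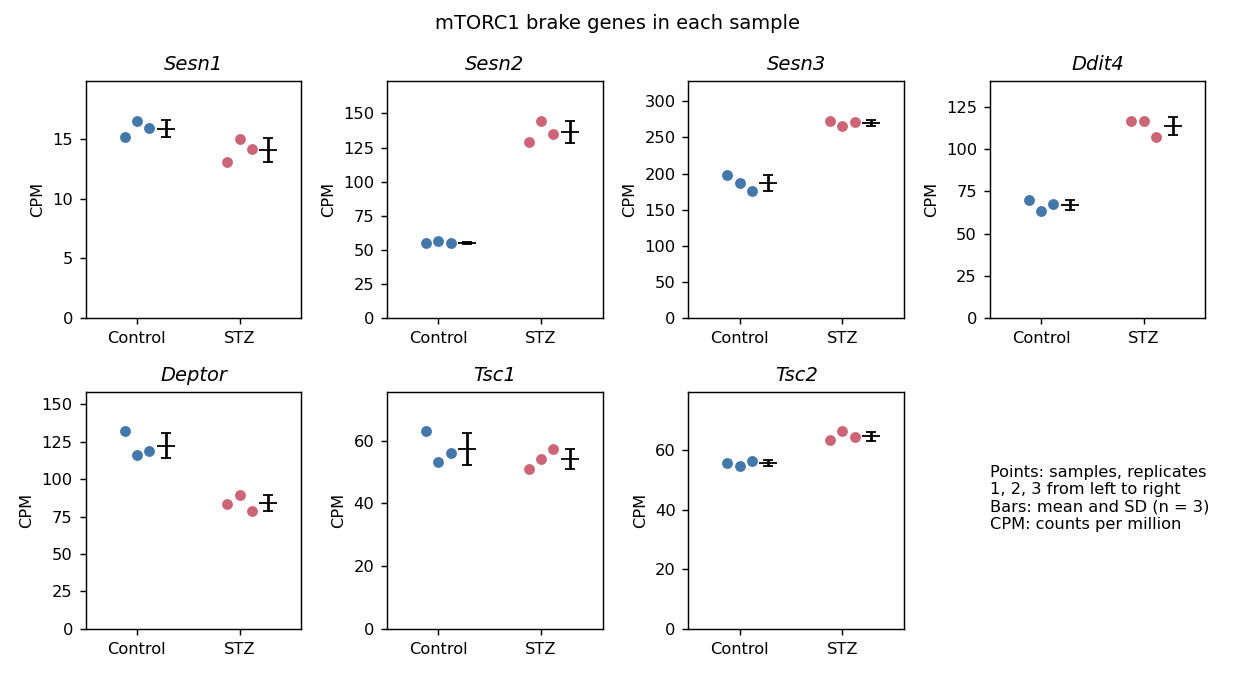
CPM (vertical axes, from 0, with a separate scale per gene) of the 7 genes in each Control and STZ sample, with the mean and SD (n = 3) beside the points. The 3 STZ samples lie above the 3 Control samples for Sesn2, Sesn3, Ddit4 and Tsc2, lie below them for Sesn1 and Deptor, and overlap with them for Tsc1.

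Tsc1 and Tsc2 encode the partners of the complex that acts on Rheb, Tsc1 as the stabilizing subunit and Tsc2 as the one with the GTPase-activating domain. Tsc2 had 55.8, 54.7 and 56.5 CPM in Control replicates 1 to 3, against 63.5, 66.4 and 64.3 CPM in the STZ replicates. All STZ samples lay above all Control samples, though by little. The log2 fold change was 0.22 (standard error 0.05, 95% interval 0.11 to 0.32, adjusted p = 8.75e-04 from the same edgeR test), a rise of 16.1%. In the GRCr8 annotation the span of Tsc2 overlaps Pkd1, the polycystin-1 gene. The library kit was stranded, but whether strand was used in counting is not given in the sources used here, so reads of the pair may be mixed. Pkd1 had a log2 fold change of -0.05 (adjusted p = 0.284 from the same edgeR test). Tsc1 had 63.0, 53.2 and 56.0 CPM in Control replicates 1 to 3, against 50.8, 54.0 and 57.3 CPM in the STZ replicates. The groups overlapped, and Control replicate 1 was the highest of the 6 samples. Its log2 fold change was -0.08 (standard error 0.06, 95% interval -0.21 to 0.04, adjusted p = 0.267 from the same edgeR test).

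Deptor, which encodes an inhibitor bound to both mTOR complexes, was the member that fell. It had 132, 116 and 119 CPM in Control replicates 1 to 3, against 83.4, 89.3 and 78.7 CPM in the STZ replicates. No STZ sample reached the lowest Control sample. The log2 fold change was -0.55 (standard error 0.05, 95% interval -0.65 to -0.45, adjusted p = 3.97e-12 from the same edgeR test). Deptor ranked 620 from the bottom of the 11870 genes by log2 fold change. In the GRCr8 annotation its span also holds 1 pseudogene and 2 small nuclear RNA genes, and a long non-coding RNA without a name overlaps Sesn2, as does another Sesn3. Reads of these were not set apart here.

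In 6 of the 7 genes the 3 STZ samples and the 3 Control samples did not overlap, 4 higher and 2 lower. Among all genes tested the groups did not overlap in 56.3%, with 28.6% higher and 27.7% lower. In bulk RNA, a change in the number of cells that express a gene and a change in RNA per cell cannot be told apart.

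Ratios of reads between members within a sample do not depend on library scaling, and they showed whether the members moved by unequal amounts. There were 5 such ratios, each compared between groups by an exact two-sided permutation test, whose smallest possible p with 3 samples against 3 is 0.1. All 5 reached that p (adjusted p = 0.1 over the 5 ratios), so none could pass 0.05. The ratio of Sesn2 to Sesn1 reads was 3.61, 3.40 and 3.48 in Control replicates 1 to 3, against 9.87, 9.64 and 9.54 in the STZ replicates. This ratio was 2.77 times higher with STZ, the largest of these 5 shifts. The ratio of Sesn2 to Sesn3 reads was 0.277, 0.300 and 0.313 in the Control replicates and 0.472, 0.546 and 0.498 in the STZ replicates, a shift of 0.77 on the log2 scale. Within the Sestrin family, Sesn2 thus gained on both of the others in each STZ sample. Sesn1 to Sesn3 shifted by -0.70 on the log2 scale, from -3.56 ± 0.126 to -4.26 ± 0.122 (SD, n = 3 each). Sesn2 to Ddit4 was 0.786, 0.884 and 0.820 in the Control replicates and 1.10, 1.24 and 1.26 in the STZ replicates. This ratio was 1.45 times higher with STZ, and only the shift between groups is read from it, since reads were not scaled to transcript length. Tsc1 to Tsc2 moved by -0.30 on the log2 scale, from 0.04 ± 0.117 in Control to -0.26 ± 0.084 in STZ (SD, n = 3 each).

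**Figure D4:**
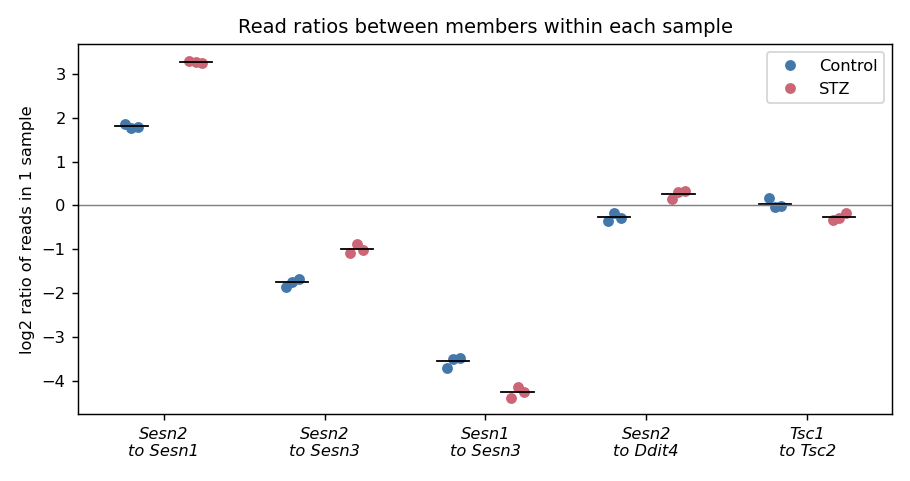
Log2 ratio of the reads of 2 members within each sample (vertical axis) for the 5 pairs compared, with Control and STZ samples as points and group means as black lines. The Sesn2 to Sesn1 ratio moves from a mean of 1.80 in Control to 3.27 in STZ, and in none of the 5 pairs do the groups overlap.

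For the Sestrins and Ddit4, the genes with the most similar course over the 6 samples were sought among 11020 other tested genes with a symbol, by the Euclidean distance of centred log2 CPM. For Sesn2 these were Ptpn6, Loxl4 and Gadd45g, at distances of 0.131, 0.135 and 0.142 log2 units. Their log2 fold changes were 1.33, 1.33 and 1.28. For Ddit4 they were Nptxr, Micall2 and Vgll3, at 0.0965, 0.0995 and 0.1. For Sesn3 they were Tango2, Tinf2 and Map3k20, at 0.0488, 0.0594 and 0.082. For Sesn1 they were Iars1, Etaa1l1 and Dtnbp1, at 0.0469, 0.0651 and 0.0682. With only 2 groups of 3 samples, a small distance says mainly that the fold changes are alike.

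The partners of these brakes in the mTORC1 pathway moved in both directions. Of 73 tested genes in 8 lists of the pathway, 14 were higher and 22 lower by the adjusted p-value, 49.3% in all against the 50.9% of all genes given above, and their median log2 fold change was -0.04. GATOR2, the complex that Sestrins bind, had 0 of 4 genes higher and 2 lower, led by Sec13 (log2 fold change -0.24). GATOR1 and its lysosomal anchor KICSTOR had 0 of 6 higher and 3 lower, among them the GATOR1 subunit Nprl3 (log2 fold change -0.59, adjusted p = 6.51e-07 from the same edgeR test). Rag GTPases, Ragulator and amino acid sensors had 7 of 14 higher and 1 lower, with Rragc at 0.35. Around Tsc1 and Tsc2, Rheb was higher (0.26) and Tbc1d7, the third subunit of the Tsc complex, was lower (-0.23), while the remaining gene of these 3, Rhebl1, was not past the threshold.

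By the same adjusted p-value rule, 25.9% of all genes tested were higher and 25.1% lower. The list of mTOR complex subunits and their assembly factors had 1 of 9 genes higher and 2 lower. The kinase gene Mtor had a log2 fold change of -0.03 (adjusted p = 0.656 from edgeR). Telo2, which helps to assemble mTOR complexes, had the smallest p of this list and fell by 0.33 on the log2 scale, and Mlst8, a subunit shared by both complexes, fell by 0.44. AMPK and LKB1 complexes had 2 of 11 higher and 2 lower. Cab39, a scaffold of the LKB1 complex, had the smallest p of this list and rose (log2 fold change 0.19), while Stk11, the LKB1 gene, fell (-0.23). Prkag3, an AMPK subunit, passed both thresholds (log2 fold change 1.27), but on 1 to 20 reads per sample. Insulin and AKT input had 0 of 11 higher and 4 lower, led by Pik3r1 (-0.46), a regulatory subunit of PI3-kinase. In all 36.4% of that list was called, a smaller share than the 50.9% of all genes tested. Substrates and effectors of mTORC1 had 3 of 15 higher and 7 lower, and Grb10, an adaptor that dampens insulin signaling, moved most (120 CPM in Control, 67.3 CPM in STZ, log2 fold change -0.84).

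Genes known to share inducers with the brakes were set beside them. The counts below are by the adjusted p-value, by which 25.9% of all genes tested were higher and 25.1% lower. Of 10 p53-induced genes, 10 were higher, with a median log2 fold change of 1.62, and Cdkn1a, the p21 gene, had the smallest p (log2 fold change 2.49). Mdm2, Ccng1, Btg2, Phlda3, Plk2 and Tp53inp1 also passed both thresholds. Inside the range of these 10 genes (0.34 to 2.49) lay Sesn2 (1.30), Ddit4 (0.76) and Sesn3 (0.53). Tsc2 (0.22), Tsc1 (-0.08), Sesn1 (-0.18) and Deptor (-0.55) lay below it. All 7 members lay inside the range of the ATF4-induced genes (-0.94 to 1.71), and which inducer acted was not tested. The study singled out the p53 pathway on these same samples, so the count of p53-induced genes called higher is not independent evidence of its direction. Of 9 ATF4-induced genes 5 were higher and 1 was lower. Atf3 passed both thresholds (log2 fold change 1.71), while Psat1, a serine synthesis enzyme with the smallest p of that list, fell by 0.94 on the log2 scale and Atf4 itself had a log2 fold change of -0.01 (adjusted p = 0.866 from edgeR). HIF-induced genes had 2 of 7 higher and 2 lower, with Ldha at 0.26, Vegfa at -0.47 and Pdk1 at -0.39. Glucocorticoid receptor-induced genes had 3 of 6 higher and 1 lower, with Errfi1 at 0.44 and Fkbp5 at -0.35. FOXO factors and FOXO-induced genes had 1 of 9 higher and 3 lower, with Pik3ip1, an inhibitor of PI3-kinase, at -0.38.

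**Figure D5:**
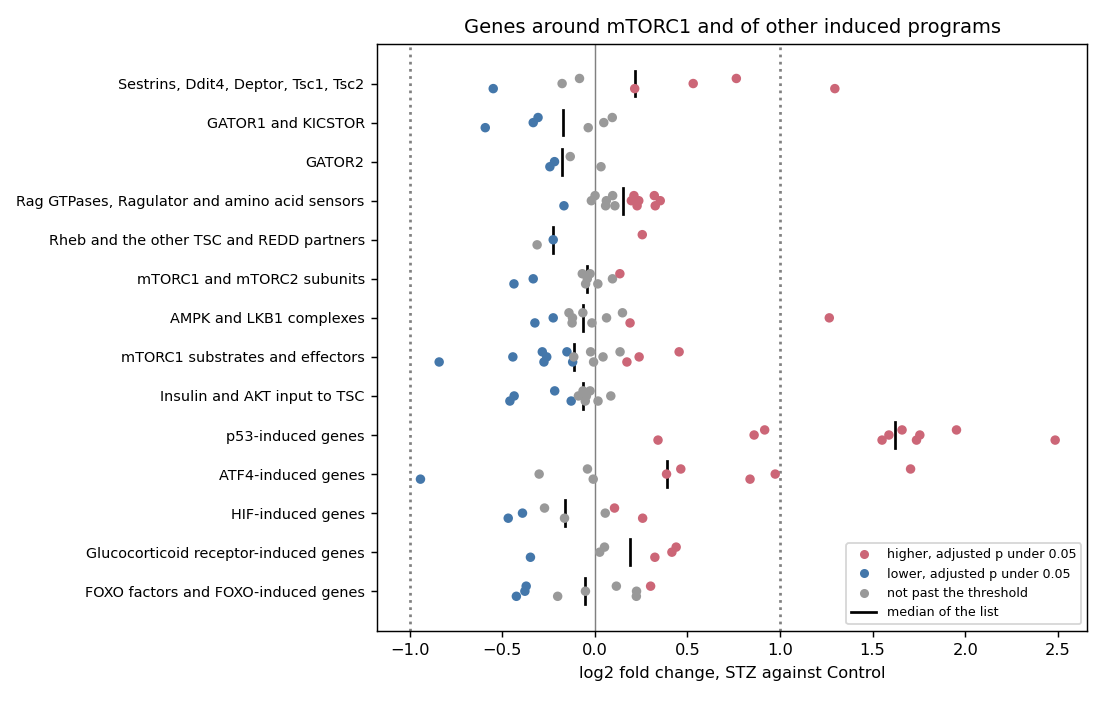
Log2 fold change of each tested gene (horizontal axis, STZ against Control) in the brakes, in 8 lists of the mTORC1 pathway and in 5 lists of genes with a known inducer, where colours give the call by adjusted p-value, black lines the list medians and dotted lines -1 and 1. The p53-induced genes have a median of 1.62, the 8 pathway lists have medians between -0.23 and 0.15, and Prkag3 is the only gene of those 8 lists beyond 1 or -1.

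Total counts per sample were 10430924 to 15191349, and the common biological coefficient of variation was 3.25%. The label of kidney epithelium was checked against marker genes. Of the proximal tubule markers, Lrp2, Slc34a1, Slc5a2, Slc2a2 and Alpl never exceeded 7 reads and Cubn never exceeded 10, while Aqp1 (log2 fold change -1.25) fell and Ggt1 (log2 fold change 0.73) rose. Of the epithelial markers, Krt8 (log2 fold change 0.48) and Tjp1 (0.15) were abundant and rose, Cdh1 fell (-0.69) on 16 to 35 reads per sample with overlapping groups, and Krt18 and Cldn4 had at most 4. The 5 epithelial markers with a row summed to between 1710 and 1790 CPM in Control and to 2290 CPM in STZ. The 9 proximal tubule markers summed to between 59.7 and 62.9 CPM in Control and between 77.7 and 89.5 CPM in STZ. Most of this sum was Ggt1 (mean 45.1 CPM in Control, 75.1 CPM in STZ), the only marker of this list called higher. Anpep (log2 fold change -0.09) was not past the threshold. The 7 fibroblast markers summed to between 99.7 and 111 CPM in Control and between 56.2 and 66.8 CPM in STZ, and all 3 that were tested fell, led by Col3a1 (log2 fold change -1.34). The 8 endothelial and leukocyte markers summed to at most 3.20 CPM in any sample, and Cd68, the only one tested, had a log2 fold change of 0.40 and was not past the threshold. The first 3 of these sums differed between the groups without overlap, as the levels of 6 members did, and their part in the results was not tested.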

How the data were processed

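RNA of NRK-52E cells was sequenced as 100-base single-end reads from a stranded mRNA kit, 3 Control and 3 STZ samples. The authors aligned them with STAR 2.7.10a (build Rnor6) and deposited the uniquely mapped reads per gene from featureCounts as raw counts. No column was left unused (0).

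From these counts, TMM scaling, the filterByExpr filter and the quasi-likelihood test were computed for the whole table with edgeR 4.0.16 in R 4.3.3. Standard errors were derived from the F statistic (size of the log2 fold change over the root of F), with 95% intervals from its degrees of freedom. The steps were tested on simulated counts. The likeness measure used log2(CPM + 0.5). Group labels came from sample titles.

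The members and lists were chosen with earlier results of these data known. The text names the 7 members, the gene with the smallest p and any gene past both thresholds in each list, and the 3 nearest genes of the Sestrins and Ddit4. Mtor, Mlst8, Stk11, Tbc1d7, Rhebl1, Atf4, Pkd1 and the markers were named for their role after their values were seen. Vegfa, Pdk1 and Fkbp5 were named as the genes of their lists that were called lower. The motifs were likewise chosen after the windows were read. Of 80 pathway genes listed, 75 had a row and 73 passed the filter. The others were not analysed here. Alternatives were 3 filters, 3 scalings, DESeq2 1.42.0, limma-voom (limma 3.58.1), a likelihood ratio test, glmTreat, thinning, the replicate block, and each sample left out.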

Additional observations from a re-analysis of the deposited data

How the results depend on the processing

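The 7 log2 fold changes were refitted under 18 alternatives each. Of 126 refits, 122 gave the same direction and the same call by adjusted p-value, 4 lost the call, and 0 reversed. Those 4 (Sesn3, Ddit4, Deptor and Tsc2) came with glmTreat, which tests against an absolute log2 fold change of 1 by construction. It called 1 member higher (Sesn2) and 0 lower, and called 0 pathway genes higher and 0 lower. With each sample left out in turn, Sesn2 was 1.25 to 1.34, Ddit4 0.73 to 0.81, Sesn3 0.49 to 0.57, Deptor -0.59 to -0.49, Tsc2 0.20 to 0.23, Sesn1 -0.22 to -0.12 and Tsc1 -0.13 to -0.02. The adjusted p of Sesn1 was at least 0.0716 in every refit. The study reported fewer genes past both thresholds on these samples than were found here, and the reason was not tested. Of all genes, 400 passed both thresholds. This became 585 with no filter, 565 with at least 0.5 CPM in 1 sample, 249 when every sample had to reach 10 counts and 112 under glmTreat, against 6046 by the adjusted p-value alone.

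Samples share replicate numbers, and the sources do not say whether these pair them. Deviations of same-numbered samples correlated by 0.0324, -0.0378 and 0.105 over 10341 genes, and those of different-numbered samples by -0.123 to 0.0866. With 3 samples per group, these values cannot decide whether the numbers pair the samples. In the fit with a replicate block, 4 members were higher and 1 lower, as without it. Within same-numbered pairs the 5 ratio shifts had the same direction, each with an exact sign-flip p of 0.25, the smallest that 3 pairs allow. Sesn1 had the fewest reads (161 to 212 per sample) and the largest standard error (0.10) of the members. Whether depth bears on its call was not tested.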
